A study of Mus musculus with 8 samples.

Results

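The 39 autophagy and lysosome genes described here are a list of gene symbols, and a gene's probes were all non-control probes on the arrays whose accession matched its symbol. All 39 genes were found, on 52 of 39429 probes, among 21612 gene symbols that could be matched on the arrays. A total of 26 genes had 1 probe and 13 had 2. Each of the 52 probes was well above background on all 8 arrays, so no member was lost to the filter on dim probes.

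Autophagy is the process by which a cell encloses part of its own cytoplasm in a double membrane, the autophagosome, and delivers it to the lysosome for digestion. A kinase complex built around ULK1 starts the process, a lipid kinase complex with beclin 1 marks the membrane, and enzymes that resemble those of ubiquitin conjugation attach LC3 and GABARAP proteins to the growing membrane. The lysosome holds acid hydrolases inside a membrane rich in LAMP proteins, and the transcription factors TFEB and TFE3 are known to raise the transcription of many genes of both systems, in liver also during fasting.

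Gene expression was measured in AML12 cells, a hepatocyte line established from the liver of a mouse transgenic for human TGF-α. The 4 irisin samples were cultured with 0.5 µg/ml irisin, a peptide cleaved from Fndc5, for 24 h, and the 4 control samples were cultured for 24 h without it, all in DMEM F-12 with fetal bovine serum. Each sample had a one-color Agilent array of its own, read after Cy3 labeling of its RNA, 8 arrays in all. The comparison asks which genes respond to irisin in a line derived from liver. The labels do not say whether the samples of a group were separate cultures, and the p-values below measure only the spread between these samples. The cells are 1 line in culture, and no vehicle is named for the control.

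Levels are log2 signals from which the array's own 75th percentile was subtracted, so that a level of 0 is the signal at that percentile, and a change is the irisin mean minus the control mean on that log2 scale. Probes differ in how well they bind, and each change was taken within a probe. Ranks by signal and summed marker signals set different probes beside each other, and describe signal rather than amounts of RNA. Where a gene had more than 1 tested probe, the brighter one stood for it. A gene was called when limma gave a change of at least 1.5-fold and an adjusted p under 0.05, over 24093 probes tested. Exact permutation tests over the 70 assignments of the arrays cannot go below p = 0.0286. Any gene whose groups do not overlap has this value, so it only restates the lack of overlap.

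The arrays differed in ways that touch every result below. The control arrays lay on 1 slide and in 1 scan, and the irisin arrays on the other slide and in the other scan, so slide, scan and irisin cannot be told apart. The 75th percentile of the signal was 472 ± 70.1 in the controls and 783 ± 71.6 with irisin (SD, n = 4), a log2 difference of 0.74. With no scaling between arrays the median change of all tested genes was 0.67, and with scaling to 8 spike-in probes it was 0.51, and those of the 39 genes were 0.70 and 0.54. Every decrease described below was measured relative to the 75th percentile and would be read relative to these shifts under the other 2 scalings. Irisin replicate 2 stood apart, being the highest or lowest irisin array in 32 of the 39 genes (82.1%), against 73.4% of all genes. Of 12 hepatocyte markers, 12 were well above background on all 8 arrays, as were 3 of 4 cholangiocyte, 2 of 6 macrophage, 2 of 4 endothelial and 1 of 5 stellate cell markers. Lyz2, Cdh5, Lrat, Dcn, Pdgfrb and Des were above background on no array. Changes past adjusted p among the markers were all decreases. They were Krt18 and Trf of 12 tested hepatocyte markers, Csf1r of 2 macrophage markers, and Pecam1 and Kdr of 2 endothelial markers. Over all tested genes 17.9% fell by this rule. Alb, Apob and Fgb of the hepatocyte list had changes above 0 that did not pass, and the rest of that list lay below 0. The summed signal of the hepatocyte list ran from 48201 to 53253% of the 75th percentile in the controls and from 39411 to 46597% with irisin. That of the macrophage list ran from 53.8 to 63.5% and from 45.7 to 54.2%, and that of the endothelial list from 69.9 to 78.6% and from 41.2 to 58.2%. The cholangiocyte list ran from 5082 to 5703% in the controls and from 5208 to 5694% with irisin. The stellate cell list ran from 3.56 to 4.79% and from 3.51 to 4.04%, so the groups overlapped in both of these lists. Each sum adds linear signals, so the brightest markers weigh most, and a lower sum does not show that a whole list fell. Krt18 and Trf, with changes of -0.47 and -0.39, were the brightest hepatocyte markers, and Kdr, with -0.56, the brightest endothelial one. Of the macrophage markers, Csf1r was at -0.49 and Cd68 at 0.0062. The part of the marker lists in the changes below was not tested. The samples are 1 hepatocyte line, and a marker of another cell type above background does not by itself show that such cells were present. In RNA of whole cultures, fewer cells of a type and less RNA per cell cannot be told apart.

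Differences between irisin and control were small in these genes. None of the 39 was called in either direction by limma, while over all 14312 tested genes 0.531% were called up and 10.2% were called down. The methods' t-test called none of the 39 either, and over all tested genes 0.335% up and 9.42% down. Before adjustment, limma gave p under 0.05 for 4 genes that were higher (10.3%) and 6 that were lower with irisin (15.4%), against 5.94% and 23.6% of all tested genes. With the adjusted p alone and no fold threshold, 1 of the 39 genes rose, Atg3, which is 2.56% against 2.65% of all tested genes. With the same rule 4 fell, Tfeb, Tfe3, Lamp1 and Ctsd, which is 10.3% against 17.9% of all tested genes. With the methods' t-test, the adjusted p passed instead for increases of Becn1 and Nbr1 and for decreases of Tfe3, Lamp1 and Ctsd, and not for Atg3 or Tfeb. These are 5.13% and 7.69% of the 39, against 2.48% and 15.8% of all tested genes by that test. Both shares from limma lie near or under the background, so the count of genes that moved is no result about the list.

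The changes ran from -0.33 in Tfe3, a fold of 0.793, to 0.32 in Atg3, a fold of 1.25. A total of 19 genes lay above 0 and 20 below it. The median change was -0.040, beside -0.064 over all tested genes, and the median size of a change was 0.127, beside 0.137 over all tested genes. The median of the 39 levels was 2.56, 2.32, 2.59 and 2.54 in the controls, and with irisin it was 2.48, 2.75, 2.42 and 2.63, so the groups overlapped. For 38 of the 39 genes the 95% interval of the change lay within 1.5-fold in both directions. The exception was Hexa, a subunit of the hexosaminidase that degrades gangliosides, whose interval ran from -0.16 to 0.67. All 4 irisin arrays lay above all 4 control arrays in 3 genes, Atg3, Becn1 and Nbr1, which is 7.69% against 4.16% of all tested genes. They lay below all control arrays in 6, Tfeb, Tfe3, Lamp1, Ctsd, Ctsl and Gabarap, which is 15.4% against 19.7% of all tested genes.

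**Figure D1:**
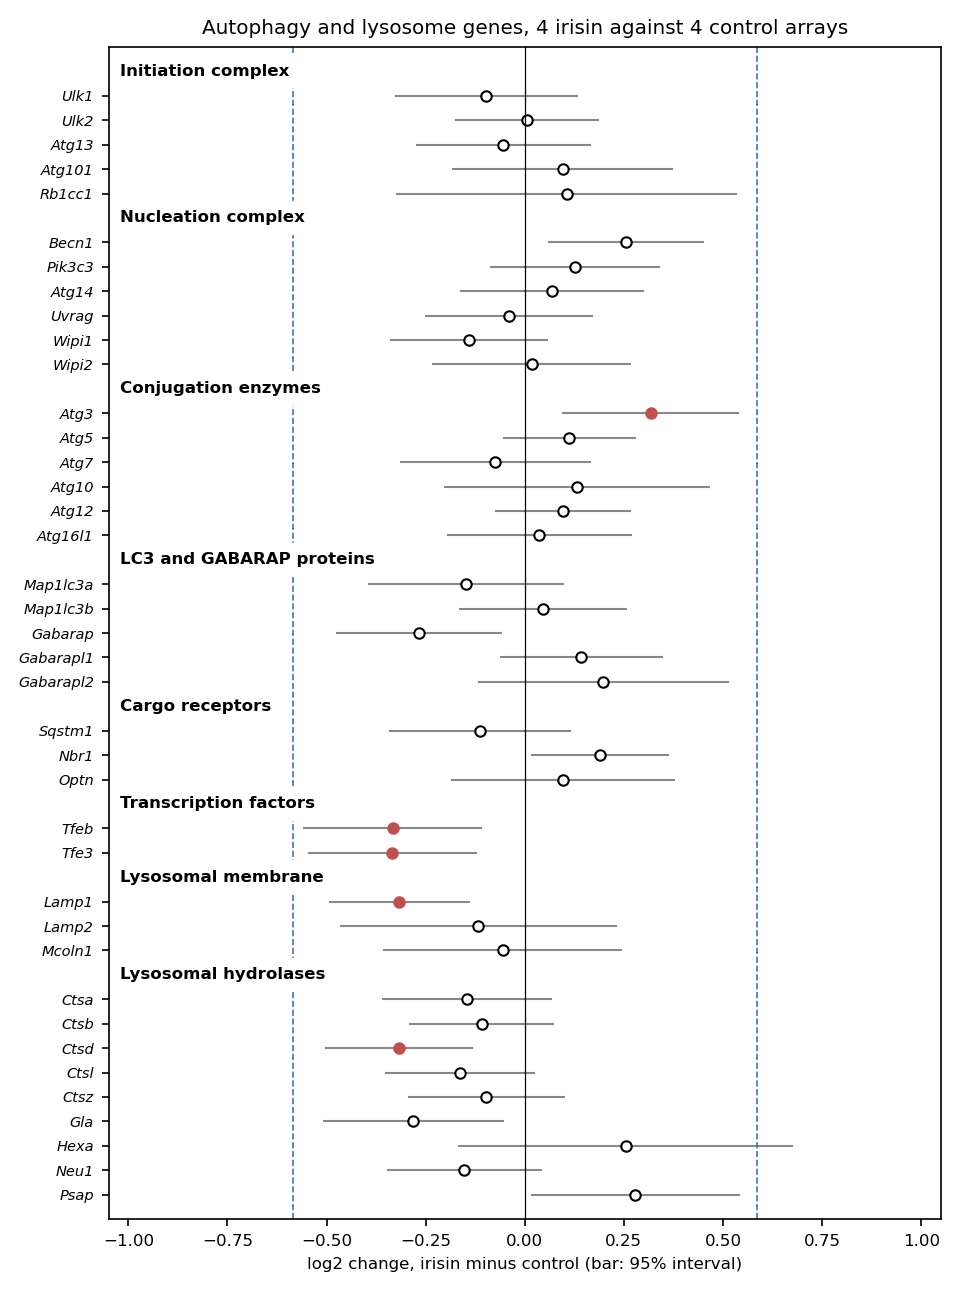
Change of each of the 39 autophagy and lysosome genes, grouped by role. The horizontal axis is the log2 change, irisin minus control, 4 arrays each, bars are 95% intervals, filled points passed adjusted p, and the dashed lines mark 1.5-fold. All points lie between -0.33 and 0.32, and only the interval of Hexa crosses a dashed line.

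The genes of the initiation complex, the kinases and scaffolds that start an autophagosome, had a median change of 0.0051 over 5 genes, and none of them passed the test. Ulk1, the kinase at the head of the complex, had levels of 2.88, 2.77, 2.81 and 2.90 in the controls and of 2.71, 3.02, 2.57 and 2.69 with irisin. The groups overlapped, with irisin replicate 2 the highest array and the other 3 irisin arrays below every control array. Its change was -0.097 with a 95% interval from -0.32 to 0.13 (limma adjusted p = 0.571). The other members were Ulk2, a second kinase, with a change of 0.0051, Atg13 and Atg101, adaptor subunits, with -0.054 and 0.096, and Rb1cc1, the scaffold FIP200, with 0.11. Rb1cc1 had the largest standard error of all 39 genes, 0.193, and its second probe had a change of -0.027.

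The 6 genes of membrane nucleation had a median change of 0.044, with 4 above 0 and none past the test. Becn1 encodes beclin 1, a regulatory subunit of the lipid kinase complex. It had levels of 0.90, 0.93, 0.79 and 0.74 in the controls and of 1.23, 1.13, 0.99 and 1.04 with irisin. Every irisin array was above every control array. The change was 0.26 ± 0.087 (SE), a fold of 1.19, with an adjusted p of 0.0569 from limma, short of the threshold. Pik3c3, the catalytic subunit VPS34, had a change of 0.13, and Atg14 and Uvrag, which join the complex in alternative forms, had 0.070 and -0.040. Wipi1 and Wipi2, which bind the lipid that the kinase makes, had -0.14 and 0.018, and their second probes had -0.20 and -0.055. The Pik3c3 change was also small on its second probe, 0.023.

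Of the 6 conjugation enzymes 5 had a change above 0, with a median of 0.10, and 1 passed the adjusted p. Atg3 encodes the E2-like enzyme that transfers LC3 to phosphatidylethanolamine. Its levels were 1.31, 1.32, 1.16 and 1.18 in the controls and 1.63, 1.33, 1.71 and 1.57 with irisin. All irisin arrays were above all control arrays, but irisin replicate 2 exceeded the highest control array by little. Atg3 rose by 0.32 ± 0.099 (SE), a fold of 1.25 (limma adjusted p = 0.0396, exact permutation p = 0.0286). The adjusted p of Atg3 passed with irisin replicate 2 left out, with a change of 0.40 and an adjusted p of 0.0055, and with none of the other 7 arrays left out, where its adjusted p reached up to 0.113. With normexp background correction the change of Atg3 was 0.17 and its adjusted p 0.767.

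Atg5, which forms a conjugate with ATG12, had levels of 1.49, 1.36, 1.43 and 1.39 in the controls and of 1.52, 1.48, 1.52 and 1.60 with irisin. The groups overlapped in a single control array. The change was 0.11, with a 95% interval from -0.054 to 0.28. Atg7, the E1-like enzyme of both conjugation systems, had levels of 2.61, 2.59, 2.59 and 2.71 in the controls and of 2.37, 2.81, 2.39 and 2.63 with irisin. Irisin replicates 1 and 3 were below all control arrays and irisin replicate 2 above them. The change was -0.075, and 0.0016 on its second probe. Atg10, the E2-like enzyme for ATG12, had 0.13, with -0.021 on the second probe, Atg12 had 0.096, with -0.14 on the second probe, and Atg16l1, the partner of the ATG12–ATG5 conjugate, had 0.037.

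The LC3 and GABARAP proteins are the ubiquitin-like proteins attached to the autophagosome membrane, and the median change of the 5 genes was 0.047, with none past the test. Map1lc3b, which encodes LC3B, had levels of 3.54, 3.41, 3.71 and 3.50 in the controls and of 3.47, 3.73, 3.53 and 3.63 with irisin. The groups overlapped throughout. The change was 0.047, with a 95% interval from -0.16 to 0.26. Gabarapl1 had levels of 4.70, 4.58, 4.70 and 4.77 in the controls and of 4.88, 5.01, 4.70 and 4.75 with irisin. Irisin replicates 1 and 2 were above all controls and the other 2 lay among them. The change was 0.14 (limma adjusted p = 0.32), and it passed the adjusted p under quantile normalization, with 0.29 and 0.0255, and under cyclic loess, with 0.29 and 0.0241.

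Gabarap went the other way. Its levels were 4.82, 4.78, 4.79 and 4.78 in the controls and 4.48, 4.73, 4.34 and 4.55 with irisin. Every irisin array was below every control array, irisin replicate 2 by little. The change was -0.27 (limma adjusted p = 0.063), short of the threshold, and -0.12 on the second probe. Without irisin replicate 2 the decrease of Gabarap passed, with -0.34 and an adjusted p of 0.0099. Map1lc3a had a change of -0.15 and Gabarapl2 of 0.20, with overlapping groups in both.

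Cargo receptors bind ubiquitinated material and LC3 at once, and the median change of the 3 genes was 0.096, with none past the test. Sqstm1 encodes p62, which is also a target of the NRF2 stress response. Its levels were 2.04, 2.18, 2.16 and 1.81 in the controls and 1.96, 2.05, 1.80 and 1.92 with irisin. The groups overlapped, with control replicate 4 near the lowest irisin array. The change was -0.11, with a 95% interval from -0.34 to 0.11. Nbr1 had levels between -1.08 and -0.95 in the controls and between -0.89 and -0.76 with irisin, with no overlap, and a change of 0.19 (limma adjusted p = 0.109). Optn, which encodes optineurin, had a change of 0.096.

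Both transcription factors fell relative to the 75th percentile, although their changes were 0.24 when arrays were scaled to spike-in probes and 0.40 without scaling, each below the median of all tested genes under that setting. Such scalings shift all genes of an array alike, so the place below that median could not change. Tfeb had levels of -2.97, -2.84, -2.61 and -2.65 in the controls and of -3.08, -3.09, -3.23 and -2.99 with irisin. The lowest control array lay just above the highest irisin array, so there was no overlap. Tfeb fell by 0.33 ± 0.10 (SE) on the log2 scale, a fold of 0.794 (limma adjusted p = 0.0342, exact permutation p = 0.0286). Tfe3 had levels of 3.75, 3.86, 4.05 and 4.03 in the controls and of 3.58, 3.69, 3.46 and 3.61 with irisin, again without overlap. Tfe3 fell by 0.33 ± 0.095 (SE), a fold of 0.793 (limma adjusted p = 0.0253, exact permutation p = 0.0286). Its second probe did not share the decrease, with a change of -0.040 and an adjusted p of 0.815. With the mean over its probes, the change of Tfe3 was -0.19 and did not pass (limma adjusted p = 0.163). Tfeb, with a single probe, was among the dimmer members, in decile 4 of tested probes by signal, decile 10 being the brightest. With normexp background correction its change was 0.0063, in place of a decrease, and Tfe3 was at -0.48 with an adjusted p of 0.0762. The adjusted p of each of the 2 factors passed with only 3 of the 8 arrays left out in turn, and the highest was 0.0992 for Tfeb and 0.077 for Tfe3.

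The lysosomal membrane genes all had changes below 0, with a median of -0.12 over 3 genes, and 1 passed the adjusted p. Lamp1, a heavily glycosylated protein that lines the inner face of the membrane, had levels of 6.41, 6.28, 6.37 and 6.33 in the controls and of 6.04, 6.14, 5.92 and 6.02 with irisin. All irisin arrays were below all control arrays, and the spread within a group was smaller than the gap between the means. Lamp1 fell by 0.32 ± 0.079 (SE), a fold of 0.803, with the lowest adjusted p of the 39 genes (limma adjusted p = 0.0136, exact permutation p = 0.0286). It passed with each of the 8 arrays left out in turn, with changes from -0.35 to -0.28 and an adjusted p of at most 0.044. With normexp background correction it was at -0.34 and did not pass (adjusted p = 0.128).

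Lamp2, the paralog needed for autophagosome fusion and for chaperone-mediated autophagy, had levels of 4.32, 4.21, 4.09 and 3.94 in the controls and of 4.37, 3.59, 4.16 and 3.98 with irisin. Irisin replicate 2 was the lowest array and the other 3 lay among the controls or above them. The change was -0.12, with a 95% interval from -0.46 to 0.23, and the second probe had 0.20 (limma adjusted p = 0.121). Mcoln1 encodes TRPML1, the calcium channel of the lysosome. Its levels were 3.04, 2.90, 2.95 and 3.09 in the controls and 2.63, 3.32, 2.83 and 2.98 with irisin. The irisin arrays spread to both sides of the controls. The change was -0.055, with a 95% interval from -0.35 to 0.24.

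The 9 genes of lysosomal hydrolases and their activator had a median change of -0.15, with 2 above 0 and 1 past the adjusted p. Ctsd, which encodes the aspartic protease cathepsin D, had levels of 5.51, 5.47, 5.61 and 5.56 in the controls and of 5.22, 5.32, 5.07 and 5.27 with irisin. All irisin arrays were below all control arrays. Ctsd fell by 0.32 ± 0.083 (SE), a fold of 0.803 (limma adjusted p = 0.0172, exact permutation p = 0.0286). The second probe had a change of like size, -0.34, with a standard error of 0.164 and an adjusted p of 0.175. The adjusted p rose to 0.0518 without control replicate 3 and to 0.0506 without irisin replicate 3. With normexp background correction it was 0.0524, with a change of -0.49.

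Ctsb and Ctsl encode the cysteine proteases cathepsin B and cathepsin L. Ctsb had levels of 5.12, 5.05, 5.21 and 5.18 in the controls and of 4.96, 5.15, 4.98 and 5.04 with irisin, and the groups overlapped. The change was -0.11, with a 95% interval from -0.29 to 0.073. Ctsl had levels of 6.28, 6.13, 6.14 and 6.17 in the controls and of 5.93, 6.12, 6.09 and 5.92 with irisin. They did not overlap, but irisin replicate 2 lay just under the lowest control array, and the change of -0.16 did not pass (limma adjusted p = 0.205). Ctsa, a serine carboxypeptidase that protects neuraminidase, had -0.15, Neu1, that neuraminidase, had -0.15, and Ctsz, another cysteine protease, had -0.097. Gla, the alpha-galactosidase deficient in Fabry disease, had -0.28 (limma adjusted p = 0.071). Irisin replicate 2 was the highest irisin array of Gla, and without it the decrease passed the adjusted p, with -0.36 and 0.0083. The 2 genes above 0 were Psap, the precursor of the saposins that present sphingolipids to hydrolases, with 0.28 (limma adjusted p = 0.121), and Hexa with 0.25.

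**Figure D2:**
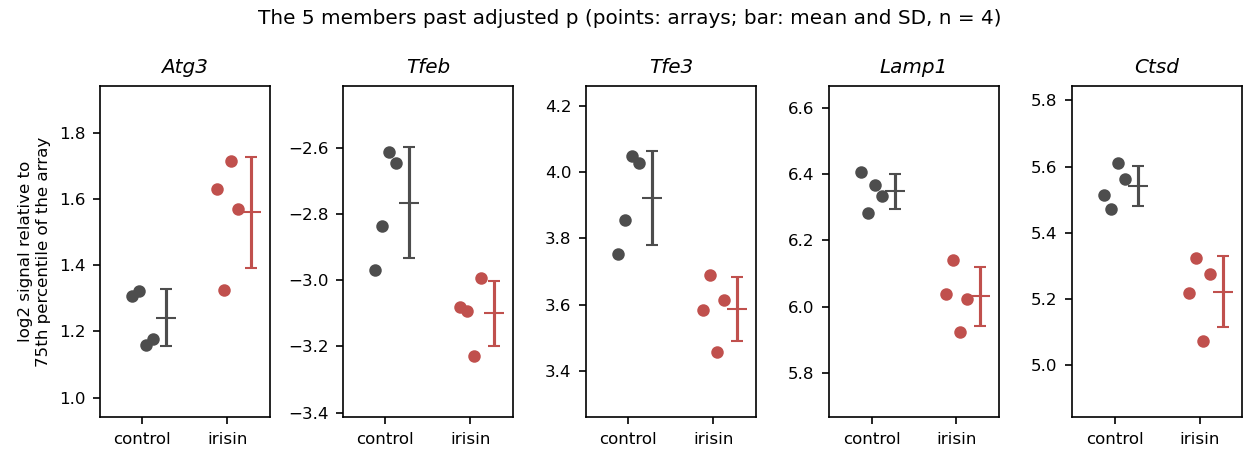
Levels on each array of the 5 genes that passed the adjusted p. The vertical axis is the log2 signal minus the array's 75th percentile, each panel spanning the same height, points are arrays, and the bar is the mean with SD of 4 arrays. The 4 irisin arrays of Atg3 lie above its control arrays and those of Tfeb, Tfe3, Lamp1 and Ctsd below.

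The size of a change varied with the brightness of the probe over the whole array. In the brightest decile of tested probes the median change was -0.20, and 92.2% of probes lay below 0. In deciles 5 to 7 the median lay between -0.0077 and 0.0021, and in the dimmest it was -0.51. The 39 genes are bright, with 9 in the brightest decile and 11 in the next, and 8 of those 9 had a change below 0, with a median of -0.16. Lamp1 and Ctsd are among the 9 and lay 0.11 below the median of their decile in each case. Tfe3 and Tfeb lay 0.28 below the medians of theirs, and Atg3 lay 0.34 above the median of its own. Quantile normalization and cyclic loess adjust the arrays to each other along the whole signal range, and with either none of the 4 decreases passed the adjusted p. Lamp1 was then at 0.0022 and -0.11, Ctsd at -0.096 and -0.15, Tfe3 at -0.26 and -0.23, and Tfeb at -0.24 and -0.21. Atg3 was at 0.33 and 0.34, with adjusted p of 0.06 and 0.0557. Becn1 rose under cyclic loess, with 0.27 and an adjusted p of 0.0442, and so did Psap, with 0.35 and 0.0362. The part of brightness in the changes was not tested.

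**Figure D3:**
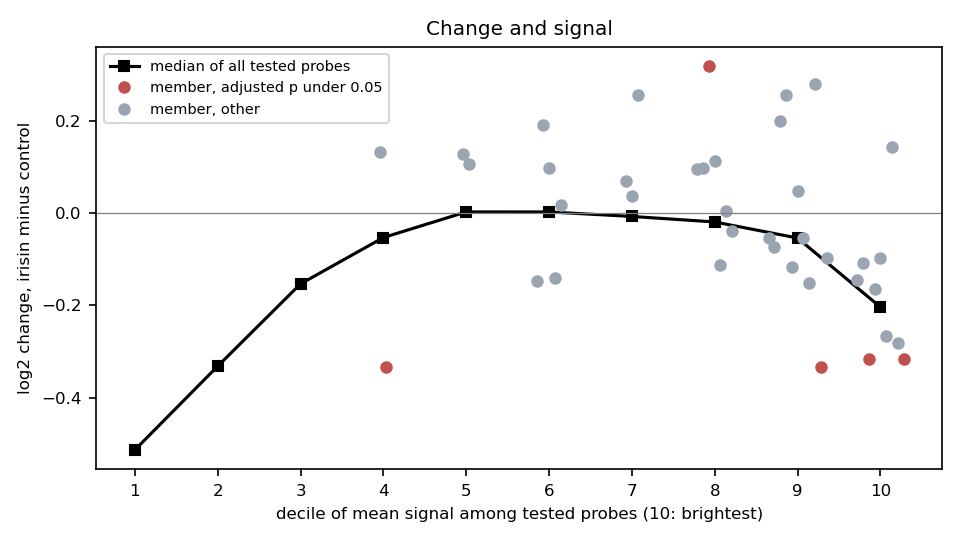
Change against signal. The horizontal axis is the decile of tested probes by mean signal, the vertical axis the log2 change, black squares are medians of all tested probes, and points are the 39 genes, red where the adjusted p passed. The medians fall from 0.0021 in the middle deciles to -0.20 in the brightest, where Lamp1 and Ctsd lie.

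**Figure D4:**
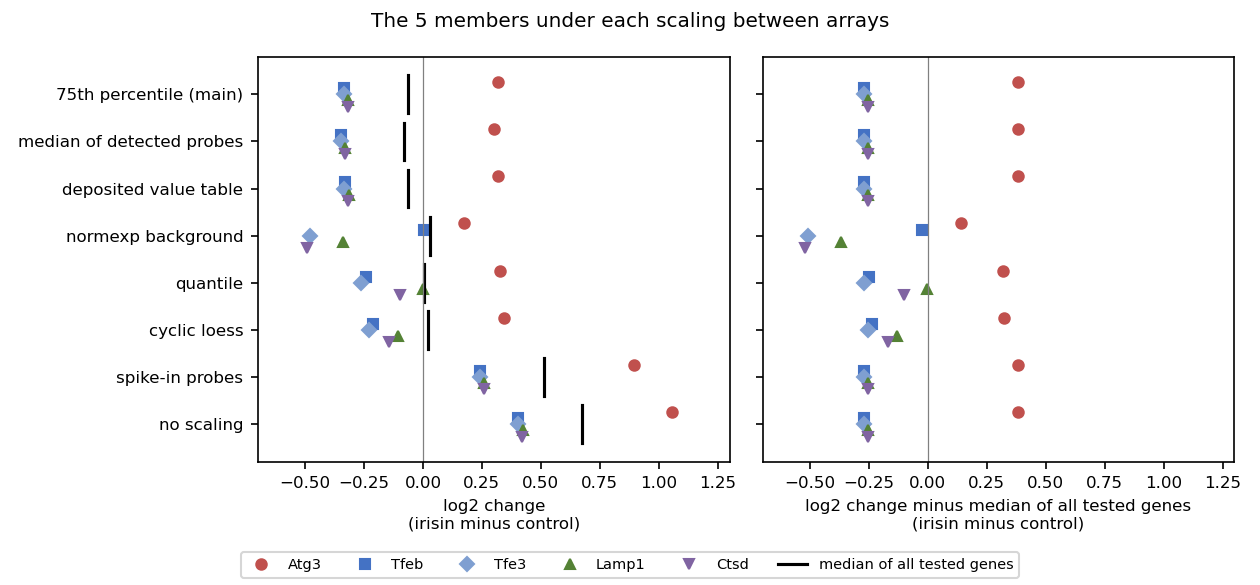
The 5 genes that passed the adjusted p, under each scaling or background correction. The left panel gives the log2 change with the median of all tested genes as a black line, and the right panel gives the change minus that median. When arrays are scaled to spike-in probes or not at all, the median of all genes is 0.51 or 0.67 and all 5 genes lie above 0, while relative to that median Lamp1, Ctsd, Tfeb and Tfe3 stay below and Atg3 above. A single factor per array shifts all genes alike, so the place relative to that median could not change under these scalings.

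TFEB and TFE3 are known to bind a DNA element built on the core CACGTG, which is also bound by many other factors. The promoters of the members were therefore read in the mouse build GRCm38.p6 of RefSeq, taking the 250 bases before the start of each transcript. A promoter was found for 32 of the 39 genes. The core, which reads the same on both strands, was present in 9 of the 32 (28.1%), Atg3, Atg5, Atg7, Ctsa, Ctsd, Ctsl, Gla, Lamp1 and Mcoln1, and in 6.86% of 27025 genes in the reference. The longer motif TCACGTG, on either strand, contains the core and was present in 7 of the 32 (21.9%), the same genes without Atg5 and Ctsl, and in 3.58% of all genes. The 9 genes with the core had changes from -0.32 in Ctsd to 0.32 in Atg3, with 2 above 0 and a median of -0.15, and the 23 without it a median of 0.0051. Of the 9, Ctsa, Ctsd, Ctsl, Gla and Lamp1 lie in the brightest decile of tested probes. In that decile the median change of all probes was -0.20 and 92.2% lay below 0. The part of brightness in the 2 medians was not tested. The comparison is a description, and a match in these letters is not evidence of binding.

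The 120 bases before the start are shown for Lamp1, Ctsd and Atg3, which passed the adjusted p, and for Mcoln1, which did not, to set like elements beside unlike changes. Capitals mark the core CACGTG and all are written 5′ to 3′ along the gene. Lamp1 lies on the plus strand at chr8:13159041-13159160, Ctsd on the minus strand at chr7:142387828-142387947, Atg3 on the plus strand at chr16:45158709-45158828 and Mcoln1 on the plus strand at chr8:3500399-3500518.
Lamp1: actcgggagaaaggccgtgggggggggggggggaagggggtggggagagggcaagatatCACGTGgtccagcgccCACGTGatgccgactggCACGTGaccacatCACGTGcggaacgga
Ctsd: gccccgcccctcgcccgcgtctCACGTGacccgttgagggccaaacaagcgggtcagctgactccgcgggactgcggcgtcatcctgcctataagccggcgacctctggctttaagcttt
Atg3: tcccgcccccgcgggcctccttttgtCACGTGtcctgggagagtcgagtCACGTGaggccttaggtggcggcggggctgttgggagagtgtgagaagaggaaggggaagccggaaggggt
Mcoln1: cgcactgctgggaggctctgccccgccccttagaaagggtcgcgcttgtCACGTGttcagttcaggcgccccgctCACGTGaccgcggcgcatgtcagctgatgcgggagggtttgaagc
The window of Lamp1 holds 4 cores, that of Ctsd 1, and those of Atg3 and Mcoln1 hold 2 each. Lamp1 and Ctsd fell and Atg3 rose, while Mcoln1 had a change of -0.055.

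Other genes of the same systems were read from 8 lists of 170 genes, of which 162 were tested. Their median change was -0.055, 58 of the 162 lay above 0, none was called up and 2 were called down, 1.23% against 10.2% of all tested genes. The methods' t-test also called none up and 2 down, against 9.42% of all tested genes down. Before adjustment limma gave p under 0.05 for 10 that were higher (6.17%) and 18 that were lower (11.1%), against 5.94% and 23.6% of all tested genes. Galns, the sulfatase that cleaves keratan sulfate, had levels of 1.70, 1.48, 1.67 and 1.59 in the controls and of 0.57, 1.36, 0.79 and 0.89 with irisin. The groups did not overlap. It fell by 0.71 (limma adjusted p = 0.0051), a decrease relative to the 75th percentile that came to -0.13 when arrays were scaled to spike-in probes and to 0.032 without scaling. Mcoln2, a relative of Mcoln1, fell by 0.86 (limma adjusted p = 0.0012) from a low level, and its change was 0.20 with normexp background correction and -0.35 under quantile normalization, where it did not pass.

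By adjusted p alone 5 of the 162 genes rose (3.09%) and 10 fell (6.17%), against 2.65% and 17.9% of all tested genes. Among glycosidases, sulfatases and lipases Asah1, the acid ceramidase, rose by 0.53 (limma adjusted p = 0.0050), and Galc and Aga rose as well, while Galns, Idua and Arsb fell. Among selective autophagy receptors and their partners Tbk1, a kinase of optineurin, rose by 0.44 and Wdfy3, a scaffold for aggregate clearance, by 0.35 (limma adjusted p = 0.0336 and 0.0269). In the list of transcription and nutrient control Foxo3, a transcription factor that also drives autophagy genes, fell by 0.58 and Sesn2, a sensor of leucine that restrains mTORC1, by 0.39 (limma adjusted p = 0.0162 and 0.0301). None of the genes in these last 2 lists passed the methods' t-test after adjustment, Tbk1, Wdfy3, Foxo3 and Sesn2 included. Among membrane proteins Mcoln2 and Mcoln3 fell, the latter by 0.58, and so did Cd63 by 0.35 and Slc17a5, the sialic acid exporter, by 0.41. Foxo3, Mcoln3 and Arsb had low levels, with control means of -5.16, -4.88 and -4.39, as did Galc, which rose, with -4.54. In deciles 1 and 2 of tested probes by signal, the dimmest, the median change of all probes was -0.51 and -0.33. The part of low signal in these changes was not tested. In the list of conjugation and fusion Atg4d, a protease that processes GABARAP proteins, fell by 0.30 (limma adjusted p = 0.0248), and the next in order was Epg5, a tether, with 0.24 (0.0575).

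None of the genes in the other 3 lists passed the adjusted p of limma. Before adjustment p was under 0.05 for 1 gene of the vacuolar ATPase, 1 lysosomal protease and 3 genes of initiation and nucleation, against 5.94% of all tested genes that were higher and 23.6% that were lower. By the methods' t-test with adjustment 1, 0 and 1 passed, against 2.48% of all tested genes up and 15.8% down. The vacuolar ATPase, the proton pump that acidifies the lysosome, had changes from -0.22 to 0.16 over 17 genes, with a median of -0.077, and the lowest adjusted p values were those of Atp6v1g1 (-0.18, 0.125) and Atp6v0b (-0.19, 0.186). The other lysosomal proteases had a median of -0.080 over 11 genes, led by Ctse (-0.29, 0.0535) and Ctsc (0.20, 0.264). The other genes of initiation and nucleation had a median of -0.082 over 15, led by Nrbf2 (0.17, 0.126) and Bcl2l1 (-0.22, 0.128).

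**Figure D5:**
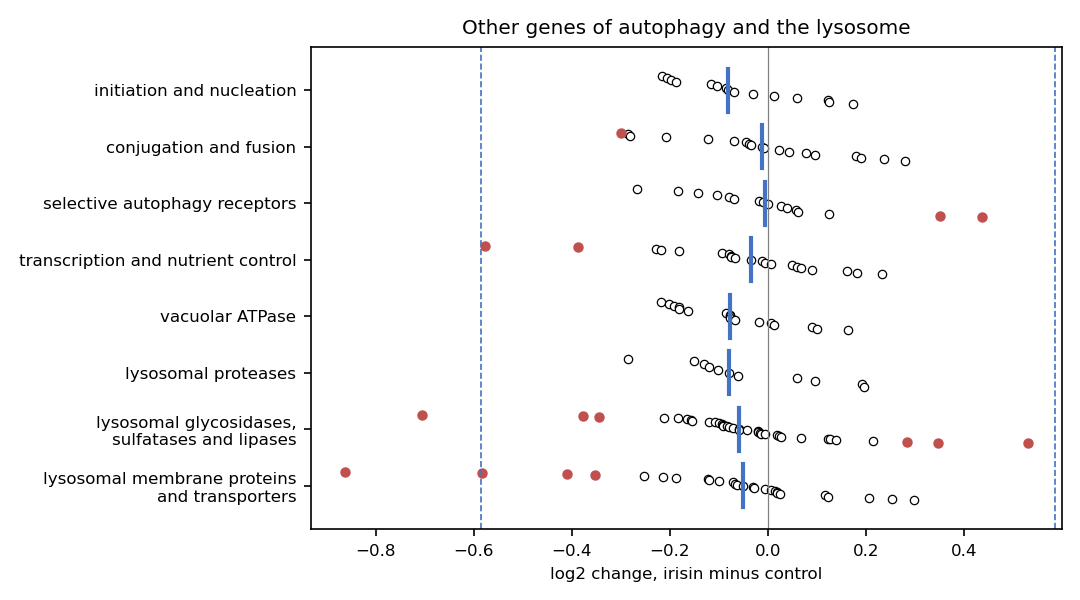
Changes of 162 other genes of autophagy and the lysosome by list. The horizontal axis is the log2 change, irisin minus control, points are genes, red where the adjusted p passed, blue bars are medians, and dashed lines mark 1.5-fold. The medians lie between -0.082 and -0.0051, and Galns and Mcoln2 lie beyond the lower dashed line with an adjusted p that passed.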

How the data were processed

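Gene expression was measured in 4 control and 4 irisin samples of AML12 cells, 1 one-color array each, grouped by their labels. With Feature Extraction 12.0.3.1 the authors turned the scans into signals, and deposited signal intensity on a linear scale, with background subtracted and not normalized between arrays. The deposited detection, saturation and outlier flags, which are marks of the authors' software and not measurements, were used as filters. The deposited value table is the average of a probe's processed spot signals, to within 0.000500%.

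Of 43020 non-control spots per array, at most 0.463% were flagged as outliers and left out, none was saturated, and spots of a probe were averaged. Between 59.5% and 64.1% of probes were well above background, and the number of arrays limits the precision. The RefSeq table of GRCm38.p6 gave a symbol for the accession of 28663 probes (72.7%). Probe positions in the files are on a different build and are not printed.

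Log2 signal minus the 75th percentile of the array was tested with limma 3.58.1 (lmFit and eBayes, R 4.3.3) with Benjamini-Hochberg adjustment over 24093 probes, each with 4 arrays of some group all well above background. Single genes were also tested by exact two-sided permutation. The methods' t-test stands for the analysis of variance they name. The fit was tested on simulated data first. Alternatives covered background correction (normexp, offset 50, on the median raw signal the files hold), normalization, value source, filters, flags, eBayes settings, the replicate block, the methods' t-test, a 2-fold threshold, the mean over a gene's probes and each array left out.

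The members, the lists and the rule for named genes were chosen with earlier results of these data known. Values on every array are given for members past adjusted p and for 14 genes set by role. Outside that rule they are also given for Gabarap and Galns. In the other lists the rule named genes past both thresholds or otherwise the 2 with the lowest adjusted p of a list, and Asah1, Galc, Aga, Idua, Arsb, Mcoln3, Cd63 and Slc17a5 were added after their values were seen. Files were read, promoters searched and plots drawn with Python 3.11.15, pandas 2.3.3 and matplotlib 3.10.9.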

Additional observations from a re-analysis of the deposited data

Results flagged for a closer look

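Levels of the 39 genes and of their median were searched for single arrays that lie far from the other 3 of their group, and 5 of 80 groups held one, where chance alone would mark about 1 in 20. Hexa, the hexosaminidase subunit, had a level of 1.76 in control replicate 2 against 2.54 to 2.69 in the other controls. Gla, the alpha-galactosidase, had 6.02 in irisin replicate 2 against 5.67 to 5.71 in the other irisin arrays. Psap, the saposin precursor, had 2.88 in control replicate 3 against 2.68 to 2.70. Atg101, an adaptor of the initiation complex, had 2.08 in control replicate 1 against 2.27 in each of the others. Pik3c3, the lipid kinase VPS34, had -1.18 in irisin replicate 1 against -1.37 to -1.34.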

How the results depend on the processing

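No member was called down under any setting run. Over all genes 10.2% were called down in the main setting, 0.398% with normexp and 29% with no filter on dim probes. The called members were 0 up except with scaling to the spike-in probes and with no scaling. With the spike-in probes they were 18 of 39 (46.2%) beside 4781 of all genes (33.4%), and with no scaling 32 (82.1%) beside 9562 (66.8%). The median change of the 39 genes was then 0.54 and 0.70, and 0.51 and 0.67 over all genes.

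By adjusted p alone 1 of 39 rose as reported, beside 2.65% of all genes. That count was 0 with normexp (0.266% of all genes), 0 with the replicate block (1.98%), 3 with cyclic loess (7.36%), 2 with the intensity trend and robust eBayes (2.99%), 2 with the methods' t-test (2.48%), 19 with the spike-in probes (41.8%), 39 with no scaling (82.8%) and 0 to 1 with an array left out (1.66% to 5.53%). By the same rule 4 fell, beside 17.9% of all genes. That count was 6 with the intensity trend (18.4%), 3 with the methods' t-test (15.8%), 1 with normexp (1.36%), 0 with quantile normalization (9.87%), 0 with cyclic loess (9.96%), 0 with the spike-in probes (1.48%), 0 with no scaling (1.36%), 0 with the replicate block (16.2%) and 1 to 6 with an array left out. The 1 with normexp was Gabarap, which is not among the 4. With the mean over all probes of a gene the count was 3 (7.69% against 18.4% of all genes), and Tfe3 was lost. The count was 6 without irisin replicate 2 (15.4% against 22.1% of all genes). It was 2 without control replicate 4 or irisin replicate 1 (5.13% against 15.4% and 16.1%). It was 1 without control replicate 3 or irisin replicate 3 (2.56% against 15.9% and 15.2%). The cause was not tested. With the replicate number as a block, 76 genes were called up and 1469 down over all genes, as against 76 and 1461. Deviations of same-numbered arrays correlated at 0.109, -0.348, -0.125 and 0.165, and those of differently numbered arrays at -0.238 to 0.365. These few values overlap, so they cannot say whether the numbers pair the samples.

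Signs turned with no scaling in Atg13 (0.68), Atg7 (0.66), Ctsa (0.59), Ctsb (0.63), Ctsd (0.42), Ctsl (0.57), Ctsz (0.64), Gabarap (0.47), Gla (0.46), Lamp1 (0.42), Lamp2 (0.62), Map1lc3a (0.59), Mcoln1 (0.68), Neu1 (0.59), Sqstm1 (0.63), Tfe3 (0.40), Tfeb (0.40), Ulk1 (0.64), Uvrag (0.70) and Wipi1 (0.60), all beside 0.67 for all genes. They turned with the spike-in probes in Ctsd (0.26), Lamp1 (0.26), Tfe3 (0.24) and Tfeb (0.24), beside 0.51, with quantile normalization in Lamp1 (0.0022) and with normexp in Tfeb (0.0063). Only genes that passed the adjusted p in the main setting or in the other one are listed as turned. With the spike-in probes all other members below 0 changed sign too, without passing in either setting. Of 858 values of single genes under an alternative, 744 kept their direction and side of the threshold or passed it in neither setting, 40 lost the threshold, 48 gained it and 26 turned. Among the 744, 47 changed sign without passing in either setting.

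With 4 arrays a group and a median standard error of 0.098, changes of the size seen here lie close to what the arrays can resolve.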
